A study of Mus musculus with 9 samples.

Results

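The genes described here are 38 glycolysis and hypoxia response genes, chosen by symbol from the 46078 genes of the read count table. They cover the hypoxia-inducible factor (HIF) subunits, the oxygen sensors that mark them for destruction, the transporters and enzymes that carry glucose to lactate, and a few classical HIF target genes. RNA was measured in bone marrow cells of wild-type B6 mice sorted as CD45-, Ter119- and CD31+ and then split by Sca-1, the surface antigen encoded by Ly6a. There were 4 Sca-1+ libraries, numbered 7, 13, 15 and 19 at the end of their titles, and 5 Sca-1- libraries, numbered 8, 10, 14, 16 and 22, with 21581653 to 25959818 counted reads each. The titles of libraries 10, 13, 14 and 22 also carry the mark CD452 (its digits alone for library 10) and those of libraries 8, 15, 16 and 19 the mark wt, which the labels do not explain. The leading title numbers of all Sca-1+ libraries are lower than those of all Sca-1- libraries. The labels do not explain these numbers, and a difference tied to them cannot be told apart from the difference between fractions. The labels give no age, no sex and no statement that libraries came from separate animals, so the p-values measure only the spread between these libraries, which may be technical.

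The comparison asks how glucose breakdown and oxygen sensing genes differ between the 2 sorted fractions. CD31 is carried by endothelial cells and also by platelets and megakaryocytes, so the gate alone does not separate them. Ly6a read 1133 ± 187 counts per 1000000 reads (CPM, SD, n = 4) in Sca-1+ and 0.678 ± 0.524 (n = 5) in Sca-1-, which matches the sort. Of 25 endothelial markers, 24 were higher in Sca-1+ and 0 were lower, with Esam not called, and they took 1.77% to 2.42% of all counts in Sca-1+ and 0.127% to 0.160% in Sca-1-. All 16 megakaryocyte markers were lower in Sca-1+, taking 0.00448% to 0.0114% of counts there and 3.16% to 6.92% in Sca-1-. None of these 16 was at 0 in either fraction. In Sca-1- leukocyte markers took 0.200% to 0.418% of counts and erythroid markers 0.148% to 0.332%, against 0.0259% to 0.0493% and 0.0162% to 0.0320% in Sca-1+. Stromal markers were split, with 5 of 10 higher and 3 of 10 lower in Sca-1+. The label calls both fractions endothelial, and the Sca-1- fraction held endothelial markers at a low level beside a high level of megakaryocyte markers. The part that these other cells play in the results below was not tested, and in bulk RNA fewer cells of a type and less RNA per cell cannot be told apart.

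As background, glycolysis breaks glucose down to pyruvate in the cytosol, and lactate dehydrogenase then turns pyruvate into lactate, which monocarboxylate transporters move across the cell membrane. HIF is a dimer of an oxygen-sensitive alpha subunit and a constant beta subunit. When oxygen is plentiful, prolyl hydroxylases mark the alpha subunit so that the von Hippel-Lindau protein can direct its destruction, and when oxygen is scarce the dimer binds DNA and turns on glycolytic genes. Endothelial cells are known to rely largely on glycolysis, and platelets carry the neuronal-type glucose transporter encoded by Slc2a3.

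HIF binds a short core, one form of which is ACGTG. The promoters of some members that went opposite ways are therefore shown with this motif in capitals. Only windows that hold the motif were kept, so its presence in each of them is not a result. Other forms of the core were not searched, so sequence without capitals may still hold one. Matches were counted on both strands, as ACGTG or CACGT, and a match can be part of the E-box CACGTG, which other factors bind. RefSeq promoters (GRCm38.p6, 250 bases before to 50 bases after each start) matched 35 of the 38 symbols, and Epas1, Slc2a3 and Ndrg1 had no entry. The windows below, each upstream of a RefSeq start and outside every annotated GENCODE exon, are given 5′ to 3′ in the direction of the gene. Hif1a, Bnip3 and P4ha2 were higher in Sca-1+, and Ldha, Pgk1 and Slc16a3 were lower.
Hif1a, chr12:73907667-73907866, plus strand: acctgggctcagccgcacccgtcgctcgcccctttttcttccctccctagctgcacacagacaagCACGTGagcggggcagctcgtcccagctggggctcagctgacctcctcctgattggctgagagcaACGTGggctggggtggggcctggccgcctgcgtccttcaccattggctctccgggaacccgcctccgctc
Bnip3, chr7:138909520-138909706, minus strand: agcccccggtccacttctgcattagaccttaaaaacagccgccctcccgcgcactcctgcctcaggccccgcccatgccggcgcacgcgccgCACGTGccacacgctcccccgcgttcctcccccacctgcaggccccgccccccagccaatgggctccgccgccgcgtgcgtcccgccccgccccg
P4ha2, chr11:54100724-54100923, plus strand: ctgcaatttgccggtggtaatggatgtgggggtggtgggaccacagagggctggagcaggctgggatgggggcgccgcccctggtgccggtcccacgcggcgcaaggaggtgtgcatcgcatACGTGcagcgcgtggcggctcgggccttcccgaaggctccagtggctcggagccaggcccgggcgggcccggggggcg
Ldha, chr7:46845604-46845803, plus strand: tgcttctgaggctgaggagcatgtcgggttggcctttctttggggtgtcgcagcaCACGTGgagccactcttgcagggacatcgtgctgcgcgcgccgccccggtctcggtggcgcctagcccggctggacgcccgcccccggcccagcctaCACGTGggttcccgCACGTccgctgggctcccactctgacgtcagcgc
Pgk1, chrX:106186900-106187099, plus strand: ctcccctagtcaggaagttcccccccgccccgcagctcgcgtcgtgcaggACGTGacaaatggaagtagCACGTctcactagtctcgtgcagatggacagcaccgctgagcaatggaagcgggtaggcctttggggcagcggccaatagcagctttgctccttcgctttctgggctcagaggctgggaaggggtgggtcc
Slc16a3, chr11:120948867-120949052, plus strand: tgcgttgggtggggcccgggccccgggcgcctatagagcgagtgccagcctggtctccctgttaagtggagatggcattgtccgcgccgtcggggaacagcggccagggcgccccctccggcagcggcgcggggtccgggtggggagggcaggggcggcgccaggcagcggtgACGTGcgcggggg

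The motif was in at least 1 promoter of 24 of the 35 members with an entry (68.6%), against 5886 of 27025 gene symbols in the whole promoter table (21.8%). By promoter rather than by gene, 27 of 49 member promoters held it (55.1%), against 6447 of 32851 (19.6%). It was in a promoter of 7 of 8 members that were higher in Sca-1+, 12 of 15 that were lower and 5 of 11 that were not called. Members of both directions therefore carried the letters, and a match is not evidence that the factor was bound in these cells. A member without a match may still hold another form of the core. The members were chosen partly as known HIF targets. Their higher share with the motif than in the whole promoter table may come from that choice and is not a result of these data.

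Of the 38 genes, 37 passed the filter on low counts and Eno2 did not. With edgeR's quasi-likelihood test across 15937 genes, 9 members were higher in Sca-1+ at an adjusted p under 0.05, where 23.3% of all genes tested were. Another 16 were lower, where 21.4% of all genes were, and 12 were not called. The share of members higher was thus close to that of all genes, and the share lower was above it. The median log2 fold change of the 37 was -0.38, beside 0.07 over all genes tested. Every Sca-1+ library lay above every Sca-1- library for 10 of the 37 (24.8% of all genes did) and below for 17 (18.8% of all genes did).

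The members include 18 glycolytic enzyme genes from hexokinase to lactate dehydrogenase. Of the 17 of these that were tested, 2 were higher (Gapdh and Ldhb) and 10 were lower, with a median log2 fold change of -1.08. Among the 20 other members 7 were higher and 6 were lower, with a median of 0.43, and the difference between these groups of genes was not tested. Summed, the enzyme genes took 0.279% to 0.307% of all counts in Sca-1+ and 0.387% to 0.569% in Sca-1-. Only Epas1 of the 37 rose by more than the median of the endothelial markers, which was 4.50 on the log2 scale.

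**Figure D1:**
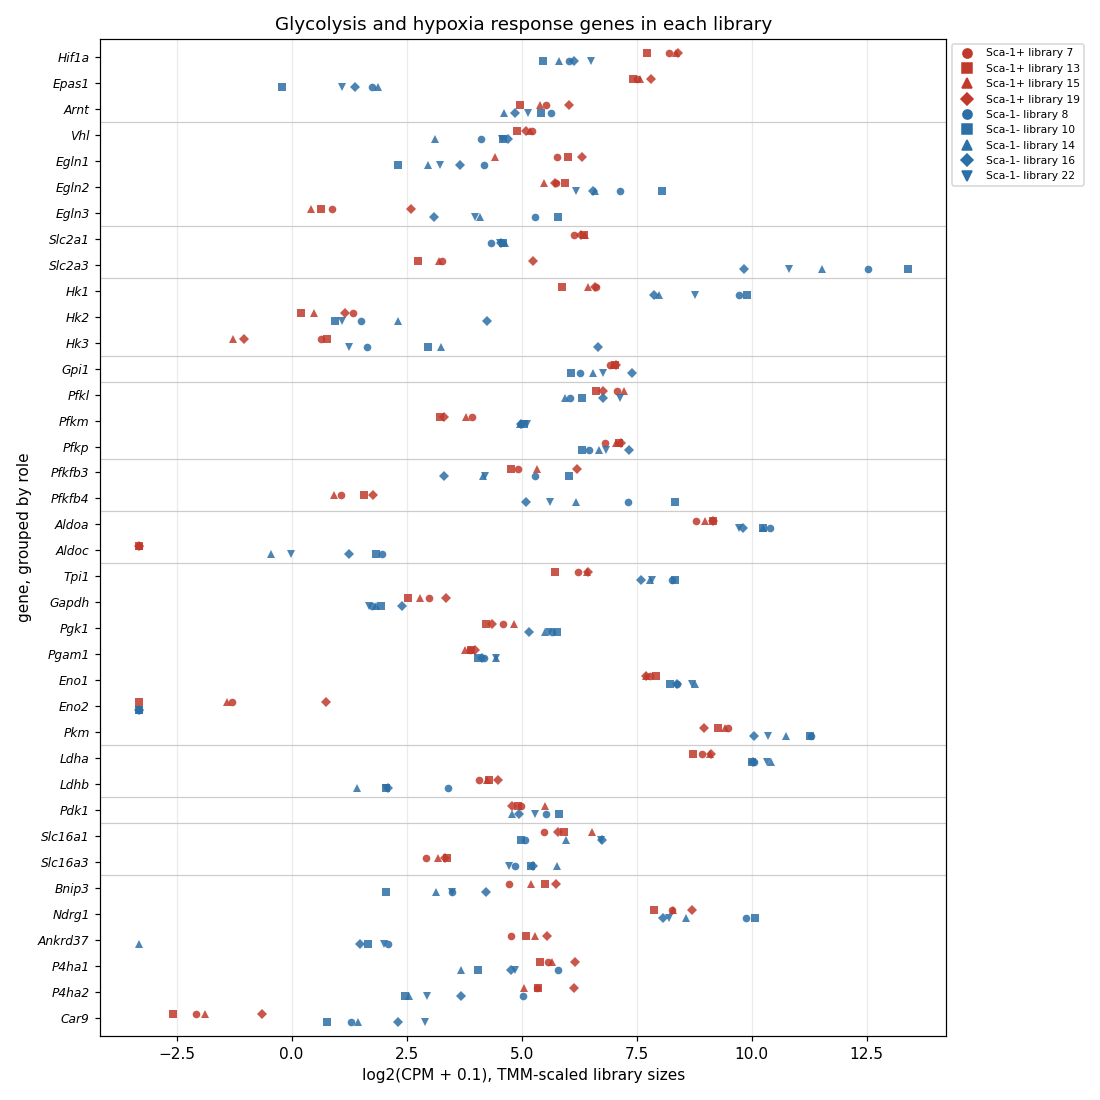
Level of each of the 38 genes in each library, as log2 of CPM plus 0.1 with TMM-scaled library sizes, grouped by role from the HIF subunits at the top to Car9 at the bottom. Red symbols are the 4 Sca-1+ libraries and blue symbols the 5 Sca-1- libraries. Slc2a3 and Pfkfb4 lie far to the right in blue, Epas1 lies far to the right in red, and Aldoc sits at 0 counts in every red library.

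Both alpha subunits of HIF were higher in Sca-1+. Hif1a, the broadly expressed subunit, read 295, 210.4, 329.8 and 337 CPM in Sca-1+ libraries 7, 13, 15 and 19. It read 64.9, 44.3, 56.5, 70.7 and 91.2 CPM in Sca-1- libraries 8, 10, 14, 16 and 22. The groups did not overlap, and Hif1a was 4.47-fold higher in Sca-1+ (log2 fold change 2.16, SE 0.25, edgeR adjusted p = 1.2e-04). Exons of genes on both strands overlap Hif1a, and the library kit does not mark strand, so a part of its reads could belong to those genes.

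Epas1 (chr17:86753700-86833410, plus strand, GRCm38), which encodes the second alpha subunit and is known for its expression in endothelium, had the largest rise of the 37 tested members. Its 4 Sca-1+ libraries read 183, 172, 189.7 and 225 CPM, and its 5 Sca-1- libraries 3.24, 0.768, 3.56, 2.49 and 2.04 CPM in the order given above. The difference was 78.9-fold (log2 fold change 6.30, SE 0.41, edgeR adjusted p = 1.3e-05). Per kb of exon Hif1a stood at 49.7 CPM and Epas1 at 34.4 in Sca-1+, and at 11.1 and 0.433 in Sca-1-. Epas1 made up 41.3% ± 3.72 (SD, n = 4) of the alpha subunit level per kb in Sca-1+ and 3.78% ± 1.85 (n = 5) in Sca-1-. Arnt, the beta subunit, read 46.1 ± 14.2 CPM in Sca-1+ and 36.2 ± 10.2 in Sca-1- and was not called (log2 fold change 0.35, SE 0.28, edgeR adjusted p = 0.34).

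The oxygen sensors moved in opposite directions. Egln1, the main prolyl hydroxylase that acts on the alpha subunit, read 54.1, 64.4, 21.5 and 79.7 CPM in Sca-1+ and 18.2, 4.89, 7.76, 12.6 and 9.32 CPM in Sca-1-. Library 15 was the lowest Sca-1+ library and still lay above library 8, the highest Sca-1- library. Egln1 was 5.20-fold higher (log2 fold change 2.38, SE 0.44, edgeR adjusted p = 0.0017).

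Egln2 and Egln3, the other hydroxylases of the family, were lower in Sca-1+. Egln2 read 53.5, 61.2, 44.6 and 52.5 CPM in Sca-1+ and 142, 264, 96.8, 94.4 and 72.2 CPM in Sca-1-, a 2.52-fold difference (log2 fold change -1.34, SE 0.37, edgeR adjusted p = 0.014). Without libraries 8 and 10, the 2 highest, its log2 fold change was -0.73. Egln3, itself a HIF target, read 1.74, 1.46, 1.24 and 5.96 CPM in Sca-1+ and 39.3, 55.2, 17.1, 8.47 and 15.7 CPM in Sca-1- (log2 fold change -3.38, SE 0.71, edgeR adjusted p = 0.0033). Its value without Sca-1+ library 19 was -4.19, and without libraries 8 and 10 it was -2.41. Egln2 had the highest mean of the 3 per kb in both fractions, although its libraries overlapped those of Egln1 in Sca-1+, with 55.9% ± 11.5 of the family level in Sca-1+ and 78.3% ± 4.69 in Sca-1-, while Egln1 took 41.4% ± 10.5 and 5.92% ± 2.97. Vhl, the von Hippel-Lindau gene, read 34.5 ± 3.37 CPM in Sca-1+ and 19.9 ± 7.14 in Sca-1-, and although the libraries did not overlap it missed the threshold (log2 fold change 0.79, SE 0.31, edgeR adjusted p = 0.057). Without library 16 it passed, at 0.90 (edgeR adjusted p = 0.046).

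The 2 glucose transporters exchanged places between the fractions. Slc2a1 (chr4:119108711-119137983, plus strand), the widespread transporter GLUT1 and a HIF target, read 70.1, 82.3, 83.4 and 78.4 CPM in Sca-1+ and 20.1, 24.2, 24.9, 23.2 and 22.9 CPM in Sca-1-. The libraries of each fraction lay close together, and the difference of 3.41-fold was the most precise rise among the members (log2 fold change 1.77, SE 0.16, edgeR adjusted p = 4.0e-05). Slc2a3 (chr6:122727809-122801640, minus strand), the high-affinity transporter GLUT3, read 9.61, 6.57, 9.15 and 37.8 CPM in Sca-1+.

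In Sca-1- the same gene read 5919, 10778, 2947, 909.7 and 1810.5 CPM. The fall was 283-fold (log2 fold change -8.15, SE 1.07, edgeR adjusted p = 2.3e-04). Libraries 8 and 10 were the highest of Sca-1-, and library 19 was the highest of Sca-1+. The log2 fold change was -6.91 without libraries 8 and 10 and -9.04 without library 19. Library 19 also had the most neutrophil marker counts of the Sca-1+ libraries, 0.0865% against 0.000969% to 0.00686%, and their part in its values was not tested. Per kb of exon, Slc2a1 made up 91.5% ± 7.03 of the level of the pair in Sca-1+ and 2.09% ± 1.83 in Sca-1-.

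Hexokinases, which trap glucose in the cell as glucose 6-phosphate, were lower in Sca-1+ for 2 of 3. Hk1, the widespread form, read 97.5, 58.4, 87.3 and 96.2 CPM in Sca-1+ and 853, 957, 253, 234 and 436 CPM in Sca-1-. It was 6.44-fold lower (log2 fold change -2.69, SE 0.49, edgeR adjusted p = 0.0014), and its value without libraries 8 and 10 was -1.87. Hk1 made up 94.6% ± 2.43 of the hexokinase level per kb in Sca-1+ and 86.4% ± 22.2 in Sca-1-, where its share ran from 47.2% to 98.7% between libraries.

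Hk3, the form of myeloid cells, read 1.47, 1.60, 0.311 and 0.387 CPM in Sca-1+ and 3.004, 7.68, 9.42, 102 and 2.28 CPM in Sca-1-. Library 16 alone held most of this level. It also had the highest level of the 10 leukocyte markers, at 0.418% of counts against 0.200% to 0.268% in the other Sca-1- libraries. Hk3 was lower in Sca-1+ (log2 fold change -4.71, SE 1.31, edgeR adjusted p = 0.014), and without library 16 the value was -2.57. Hk2, the inducible form, read 1.73 ± 0.649 CPM in Sca-1+ and 6.08 ± 7.27 in Sca-1-, again with library 16 highest at 18.9 CPM, and was not called (edgeR adjusted p = 0.076). Its log2 fold change of -1.81 (SE 0.76) became -0.74 without library 16 (edgeR adjusted p = 0.27), and without library 10 it passed, at -2.11 (edgeR adjusted p = 0.046).

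Glucose phosphate isomerase, which converts glucose 6-phosphate to fructose 6-phosphate, did not pass the test. Its gene Gpi1 read 128 ± 4.59 CPM in Sca-1+ and 103 ± 39.6 in Sca-1- (log2 fold change 0.31, SE 0.27, edgeR adjusted p = 0.37). Phosphofructokinase, the committed step of glycolysis, has liver, muscle and platelet subunits. The liver gene Pfkl and the platelet gene Pfkp, at 123 ± 24.0 and 132 ± 13.7 CPM in Sca-1+ and 91.2 ± 33.2 and 109 ± 31.6 CPM in Sca-1-, were not called (edgeR adjusted p = 0.24 and 0.38).

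Pfkm, the muscle subunit gene, was lower. Its Sca-1+ libraries read 15.03, 9.23, 13.7 and 9.80 CPM and its Sca-1- libraries 31.4, 32.9, 30.9, 31.7 and 34.4 CPM. The Sca-1- values lay close together (SD 1.38 CPM), and the gene was 2.70-fold lower in Sca-1+ (log2 fold change -1.43, SE 0.22, edgeR adjusted p = 5.3e-04). Its share of the phosphofructokinase level per kb was 11.2% ± 1.77 in Sca-1+ and 31.6% ± 5.64 in Sca-1-.

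The bifunctional PFKFB enzymes set the level of fructose 2,6-bisphosphate, the strongest activator of phosphofructokinase. Pfkfb3, the form studied most in growing endothelium, read 30.1, 27.1, 40.1 and 73.4 CPM in Sca-1+ and 39.2, 65.2, 17.7, 9.86 and 18.2 CPM in Sca-1-, with overlap (log2 fold change 0.51, SE 0.53, edgeR adjusted p = 0.46). Pfkfb4 read 2.01, 2.90, 1.80 and 3.33 CPM in Sca-1+ and 159, 325, 72.6, 34.3 and 48.8 CPM in Sca-1-. It was 50.9-fold lower (log2 fold change -5.67, SE 0.76, edgeR adjusted p = 2.6e-04), and its value was -4.37 without libraries 8 and 10 and -5.04 without library 10. Per kb, Pfkfb3 supplied 90.8% ± 3.61 of the pair in Sca-1+, and Pfkfb4 supplied 85.2% ± 2.99 in Sca-1-.

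Aldolases split the six-carbon sugar phosphate, and both member genes were lower in Sca-1+. Aldoa, the main form, read 442, 576, 507 and 576 CPM in Sca-1+ and 1346, 1221, 1224, 898 and 851 CPM in Sca-1-, a 2.11-fold difference (log2 fold change -1.08, SE 0.24, edgeR adjusted p = 0.0046). Aldoc, the brain form, had 0 counts in all 4 Sca-1+ libraries and read 3.78, 3.49, 0.636, 2.29 and 0.896 CPM in Sca-1-. Against a floor of 3 counts per library, Aldoc was at least 19.1-fold lower (edgeR adjusted p = 9.3e-04).

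The later steps of the pathway, from triose phosphates to pyruvate, was lower in Sca-1+ for 4 of the 6 genes tested. Tpi1, triose phosphate isomerase, read 75.2, 53.0, 85.1 and 86.4 CPM in Sca-1+ and 307, 323, 222, 192 and 227 CPM in Sca-1-, a 3.40-fold difference (log2 fold change -1.76, SE 0.25, edgeR adjusted p = 3.3e-04). Pkm, pyruvate kinase, read 719, 617, 686 and 503 CPM in Sca-1+ and 2518, 2483, 1707, 1056 and 1302 CPM in Sca-1-. It was 2.87-fold lower (log2 fold change -1.52, SE 0.33, edgeR adjusted p = 0.0039), with libraries 8 and 10 the highest.

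Pgk1 and Eno1, for phosphoglycerate kinase and enolase, differed less. Pgk1 read 24.0, 18.5, 28.2 and 20.5 CPM in Sca-1+ and 50.5, 54.6, 45.8, 35.7 and 48.5 CPM in Sca-1- (log2 fold change -1.04, SE 0.21, edgeR adjusted p = 0.0026). Eno1 read 220.1, 241, 209 and 207 CPM in Sca-1+ and 331, 299, 438, 333 and 418 CPM in Sca-1- (log2 fold change -0.73, SE 0.20, edgeR adjusted p = 0.013). Neither gene overlapped between the fractions. With no scaling other than library size their values were -0.62 and -0.38, and neither passed the test (edgeR adjusted p = 0.094 and 0.36). Pgam1, phosphoglycerate mutase, read 14.7 ± 0.849 CPM in Sca-1+ and 19.1 ± 2.51 in Sca-1- and was not called (edgeR adjusted p = 0.15).

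Gapdh, glyceraldehyde 3-phosphate dehydrogenase, went the other way at a low counted level. Its libraries read 7.80, 5.65, 6.84 and 10.1 CPM in Sca-1+ and 3.24, 3.77, 3.48, 5.21 and 3.10 CPM in Sca-1- (log2 fold change 1.01, SE 0.32, edgeR adjusted p = 0.026). Per kb this was 1.84 CPM in Sca-1+, beside 10.2 for Pgk1 and 27.2 for Tpi1 in the same libraries. Gapdh shares 25.1% of its 50-base transcript windows with 223 other annotated genes, many of them copies, and it overlaps a gene on the opposite strand, so its level is uncertain. The call was lost when any one of Sca-1+ libraries 7, 15 or 19 or Sca-1- libraries 8, 10, 14 or 22 was left out, with adjusted p between 0.051 and 0.084. Shared windows also make Pgk1 (53.9%), Bnip3 (47.2%), Pgam1 (36.2%), Eno1 (25.99%), Pkm (25.8%) and Ldhb (20.99%) less certain in level. Exons on the opposite strand overlap Egln2, Slc2a1, Hk1, Hk3, Gpi1, Pfkm, Pfkp, Aldoa, Tpi1, Bnip3, Ndrg1 and Car9 as well, and exons on the same strand overlap Pfkm and Pkm, so reads in those stretches cannot be assigned with certainty. Eno2, the neuronal enolase, had 9, 0, 8 and 41 counts in Sca-1+ and 0 in every Sca-1- library and was not tested.

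**Figure D2:**
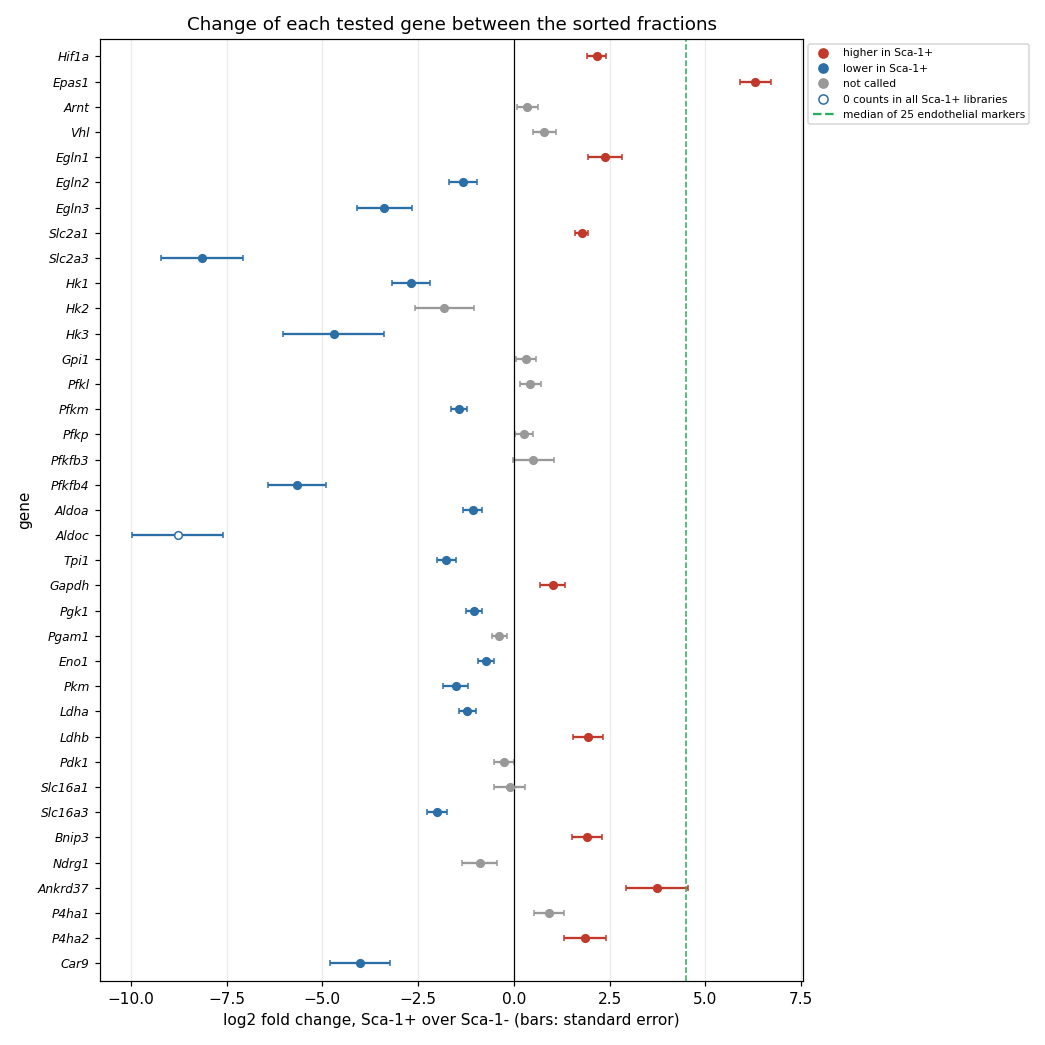
Log2 fold change of the 37 tested genes between Sca-1+ and Sca-1-, with the standard error of the edgeR fit as bars, and the genes in the same order as their roles. Red points passed the test as higher in Sca-1+, blue as lower, grey did not pass, the open point marks Aldoc with 0 counts in Sca-1+, and the dashed line is the median of the 25 endothelial markers at 4.50. Epas1 at 6.30 lies to the right of that line, while most enzyme genes from Hk1 to Ldha lie left of 0.

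Lactate dehydrogenase subunits changed in opposite directions. Ldha, whose subunit favours the making of lactate, read 481, 422, 543 and 552 CPM in Sca-1+ and 1054, 1031, 1379, 1048 and 1289 CPM in Sca-1-, and was 2.32-fold lower (log2 fold change -1.22, SE 0.22, edgeR adjusted p = 0.0015). Ldhb, the subunit of oxidative tissues, read 16.6, 19.4, 18.8 and 22.5 CPM in Sca-1+ and 10.5, 4.05, 2.59, 4.15 and 4.03 CPM in Sca-1-. Library 8 was the highest Sca-1- library, and Ldhb was 3.82-fold higher in Sca-1+ (log2 fold change 1.93, SE 0.40, edgeR adjusted p = 0.003). Ldha still made up most of the level per kb in both, as Ldhb took 7.58% ± 0.983 in Sca-1+ and 0.952% ± 0.644 in Sca-1-.

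The lactate transporters differed by member. Slc16a3, which encodes MCT4, the exporter of strongly glycolytic cells, read 7.53, 10.3, 8.94 and 9.99 CPM in Sca-1+ and 28.7, 36.6, 54.7, 37.8 and 26.5 CPM in Sca-1-. It was 4.01-fold lower (log2 fold change -2.0, SE 0.27, edgeR adjusted p = 2.5e-04). Slc16a1, which encodes the widespread MCT1, read 63.1 ± 20.4 CPM in Sca-1+ and 68.2 ± 37.1 in Sca-1-, with wide overlap and no call (edgeR adjusted p = 0.84). Pdk1, the kinase that holds pyruvate back from the mitochondria, read 33.6 ± 7.91 and 39.9 ± 11.5 CPM and was not called either (edgeR adjusted p = 0.46).

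Other hypoxia response genes were higher in Sca-1+ for 3 of 6. Bnip3, a mitophagy receptor, read 26.3, 45.3, 37.0 and 53.5 CPM in Sca-1+ and 11.1, 4.05, 8.74, 18.5 and 11.1 CPM in Sca-1- (log2 fold change 1.92, SE 0.39, edgeR adjusted p = 0.0029). Ankrd37, an ankyrin-repeat gene known as a HIF target, read 26.99, 34.1, 39.3 and 46.6 CPM in Sca-1+ and 4.14, 3.07, 0, 2.72 and 3.91 CPM in Sca-1-. It was 13.3-fold higher (log2 fold change 3.73, SE 0.82, edgeR adjusted p = 0.0042), and its exons overlap those of Lrp2bp and Ufsp2 on the opposite strand, whose reads cannot be told apart from its own.

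Of the 2 collagen prolyl 4-hydroxylase subunits, P4ha2 was higher in Sca-1+ and P4ha1 was not called. P4ha2 read 40.4, 41.1, 33.0 and 70.8 CPM in Sca-1+ and 32.6, 5.45, 5.77, 12.7 and 7.62 CPM in Sca-1-, so that library 8 nearly met the lowest Sca-1+ library. Its log2 fold change was 1.86 (SE 0.54, edgeR adjusted p = 0.017). This was 2.47 without library 8, and without Sca-1+ library 19 it was 1.58 and missed the threshold (edgeR adjusted p = 0.054). P4ha1 read 52.9 ± 12.6 CPM in Sca-1+ and 28.1 ± 16.6 in Sca-1-, with library 8 at 55.1 CPM (log2 fold change 0.91, edgeR adjusted p = 0.083). Without library 8 it passed, at 1.23 (edgeR adjusted p = 0.0098). Library 8 also had the highest level of the 10 stromal markers, 2.80% of its counts, where the other Sca-1- libraries held 0.325% to 2.21%, and their part in these values was not tested.

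Of the remaining members Car9 was lower in Sca-1+ and Ndrg1 was not called. Car9, the membrane carbonic anhydrase used as a marker of hypoxic tumours, read 0.136, 0.0681, 0.173 and 0.542 CPM in Sca-1+ and 2.34, 1.61, 2.63, 4.85 and 7.37 CPM in Sca-1- (log2 fold change -4.02, SE 0.77, edgeR adjusted p = 0.002). It was low in both fractions, and without Sca-1+ library 19 its value was -4.85. Ndrg1, a stress-responsive gene, read 309, 235, 313 and 418 CPM in Sca-1+ and 938, 1083, 379, 268 and 294 CPM in Sca-1-, and was not called (log2 fold change -0.89, SE 0.46, edgeR adjusted p = 0.14).

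Ratios of paired isozymes compare 2 genes within one library and so do not depend on how libraries were scaled. The 12 pairs were each tested with a two-sided exact permutation test over all assignments of the 9 libraries to groups of 4 and 5, in which the smallest possible p is 0.0079, and adjusted over the 12. After this 10 passed, and in 9 the fractions did not overlap. Ratios of other gene pairs were not tested, so these counts have no share of all pairs beside them. Among single genes tested, every Sca-1+ library lay above every Sca-1- library for 24.8% and below for 18.8%. In the pairs Slc2a1 and Slc2a3, Egln1 and Egln2, and Ldha and Ldhb, the genes were already separated singly, in opposite directions. The separation of their ratios therefore follows from the single-gene levels and is not a further result. The log2 ratio of Slc2a1 to Slc2a3 differed most, at 2.69 ± 1.14 (SD, n = 4) in Sca-1+ and -7.10 ± 1.42 (n = 5) in Sca-1- (exact permutation, adjusted p = 0.014).

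Pfkfb3 over Pfkfb4 was 4.01 ± 0.589 in Sca-1+ and -1.92 ± 0.333 in Sca-1-, and Hif1a over Epas1 was 0.59 ± 0.22 and 4.87 ± 0.76. The same adjusted p of 0.014 (exact permutation) held for both, for Egln1 over Egln2 (-0.09 ± 0.70 and -3.64 ± 1.22), for Ldha over Ldhb (4.69 ± 0.20 and 7.99 ± 0.87), for Pfkl over Pfkm (3.37 ± 0.15 and 1.43 ± 0.46) and for Aldoa over Aldoc (14.85 ± 0.16 and 9.24 ± 1.08). The Aldoc counts of 0 make the last ratio depend on the 0.5 added to each count. Slc16a1 over Slc16a3 was 2.73 ± 0.42 and 0.74 ± 0.95, and P4ha1 over P4ha2 was 0.23 ± 0.29 and 1.304 ± 0.45, each with an exact permutation adjusted p of 0.021.

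Eno1 over Eno2 overlapped between the fractions and rested on Eno2 counts at or near 0, with 9.92 ± 2.82 in Sca-1+ and 13.89 ± 0.60 in Sca-1- (exact permutation, adjusted p = 0.029). Hk1 over Hk2 and Pfkl over Pfkp did not pass, with differences of -1.21 and 0.18 (exact permutation, adjusted p = 0.34 and 0.52). Among the Sca-1- libraries, Hk1 over Hk2 ran from 3.63 in library 16 to 9.02 in library 10, while the 4 Sca-1+ libraries lay between 5.32 and 6.04.

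**Figure D3:**
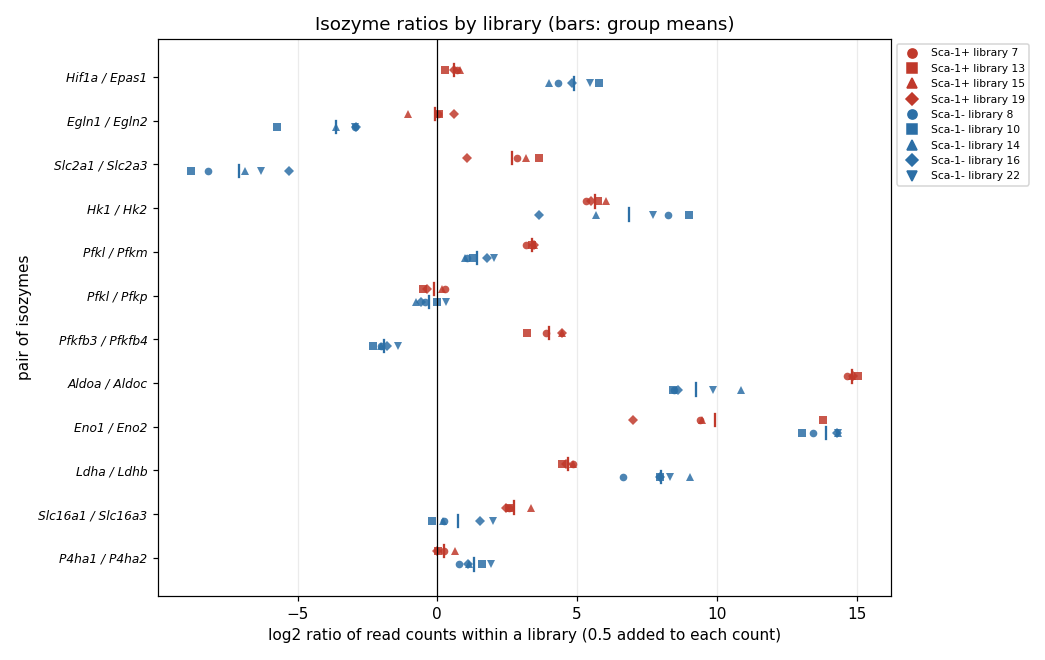
Log2 ratio of the read counts of 2 isozymes within each library, with 0.5 added to each count, for 12 pairs. Red symbols are Sca-1+ libraries, blue symbols Sca-1- libraries and short vertical bars the group means. The glucose transporters and the PFKFB enzymes lie on opposite sides of 0 in the 2 fractions, whereas Pfkl over Pfkp overlaps.

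Within the Sca-1- fraction the members did not all follow the same libraries. Levels compared here are CPM with TMM-scaled library sizes. For 13 members libraries 8 and 10 both lay above libraries 14, 16 and 22, as they did for 22.6% of all genes tested. These were Arnt, Egln2, Egln3, Slc2a3, Hk1, Pfkfb3, Pfkfb4, Aldoc, Tpi1, Pgk1, Pkm, Pdk1 and Ndrg1. For 5 members, Gpi1, Pfkp, Eno1, Slc16a1 and Car9, both lay below the other 3 (26.6% of all genes). The TMM factors were 0.671 and 0.581 for libraries 8 and 10, and 0.988, 1.16 and 1.14 for libraries 14, 16 and 22. The pattern therefore rests in part on the scaling. In raw counts Slc2a3 kept it (98528 and 154368 against 69458, 27396 and 44462). Tpi1 did not (5118 and 4632 against 5242, 5793 and 5569). Unscaled, the summed enzyme genes took 0.454% and 0.387% of counts in libraries 8 and 10, against 0.512% to 0.569%. Libraries 8 and 10 also held the most megakaryocyte marker counts, 6.24% and 6.92%, against 3.16% in library 16, 4.35% in library 22 and 5.58% in library 14. In scaled CPM Slc2a3 followed this order of libraries at every step, as did Pfkfb4, Egln3 and Ndrg1. Ldha and Eno1 did not, with library 14 highest for both. The TMM factors fall in the same order, so scaling alone moves genes toward it. In raw counts Slc2a3, Pfkfb4 and Egln3 kept the order. Ndrg1 did not, with 8060 in library 16 against 7211 in library 22, and 15620 in library 8 against 15512 in library 10. The share of all genes that follow this order was not counted. The part of megakaryocyte RNA in these levels was not tested. With libraries 8 and 10 left out, 10 members were higher and 17 lower in Sca-1+. Over all 16389 genes tested then, 3836 were higher and 3710 lower. Gapdh was no longer called, while Pfkfb3 (1.47) and P4ha1 (1.19) passed as higher and Hk2 (-2.32) as lower.

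**Figure D4:**
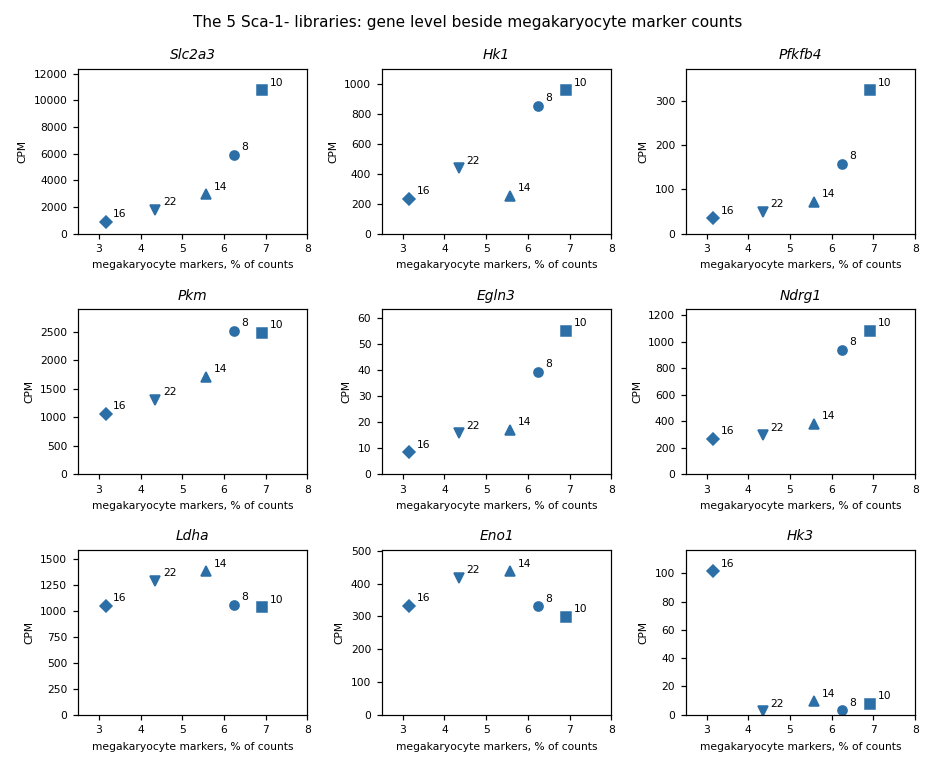
Level in CPM (TMM-scaled library sizes) of 9 members in the 5 Sca-1- libraries, each point labelled with its library number. The horizontal axis is the percent of all counts, unscaled, taken by the 16 megakaryocyte markers. The genes were chosen after their values were seen. Slc2a3, Pfkfb4, Egln3 and Ndrg1 are ordered as the markers are, Ldha and Eno1 are not, and Hk3 is high in library 16 alone. The TMM factors fall in the same order as the markers, and Ndrg1 does not keep it in raw counts.

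Neighbouring pathways were read from gene lists of their own. Beside the counts below, 23.3% of all genes tested were higher in Sca-1+ and 21.4% were lower. The median log2 fold change of all genes was 0.07. No list was tested as a set, and counts near these shares are not results about a pathway. Of 15 other glycolysis genes tested, 2 were higher and 4 lower in Sca-1+, with a median log2 fold change of 0.26. Pklr, the liver and red cell pyruvate kinase, was lower at 0.696 ± 0.463 against 15.9 ± 12.3 CPM (edgeR adjusted p = 0.0015), and so was Eno3, the muscle enolase, at 2.13 ± 0.956 against 14.1 ± 3.25 CPM (edgeR adjusted p = 3.6e-04).

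Of 32 other HIF targets and regulators, 9 were higher and 7 lower, with a median of 0.04. Angptl4, an inhibitor of lipoprotein lipase, read 474 ± 196 CPM in Sca-1+ and 30.5 ± 28.2 in Sca-1- (log2 fold change 3.96, edgeR adjusted p = 6.4e-04). Hmox1, heme oxygenase, read 102 ± 36.6 and 6.62 ± 3.41 CPM (log2 fold change 3.95, edgeR adjusted p = 9.2e-05). Car12, a carbonic anhydrase like Car9, read 0.0170 ± 0.0197 CPM in Sca-1+ and 23.9 ± 14.3 CPM in Sca-1- (edgeR adjusted p = 2.8e-05).

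The pentose phosphate pathway, which draws glucose 6-phosphate away from glycolysis, had 0 of 7 genes higher and 4 lower. Taldo1, transaldolase, was lower at 169.7 ± 13.1 against 2760 ± 1556 CPM (log2 fold change -4.02, edgeR adjusted p = 1.3e-04), and G6pdx, the entry enzyme, at 23.6 ± 4.36 against 169.7 ± 62.6 CPM (log2 fold change -2.84, edgeR adjusted p = 8.8e-05). Pgd, the next dehydrogenase, was lower too (log2 fold change -1.61, edgeR adjusted p = 9.4e-04). At the entry of pyruvate into mitochondria 1 of 13 genes was higher and 2 were lower. Pdp1, a pyruvate dehydrogenase phosphatase, was the higher one at 22.4 ± 3.13 against 9.08 ± 3.93 CPM (log2 fold change 1.30, edgeR adjusted p = 0.02). Pdk3, a relative of Pdk1, was lower at 23.6 ± 3.05 against 88.9 ± 17.8 CPM (edgeR adjusted p = 1.0e-04), and Mpc1, of the mitochondrial pyruvate carrier, at 16.6 ± 1.87 against 25.96 ± 2.91 CPM (edgeR adjusted p = 0.02). In the tricarboxylic acid cycle 0 of 16 were higher and 3 lower, with a median of -0.27, Dlst among them at 34.8 ± 5.78 against 65.2 ± 9.71 CPM (edgeR adjusted p = 0.0042).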

How the data were processed

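RNA-seq counts were available for 9 libraries, made by the authors from polyadenylated RNA of sorted cells with a full-length SMART-Seq kit. Per the labels, reads were aligned with STAR to mm10 and counted with featureCounts, and the deposited table holds raw read counts per gene. Versions and the counting of multiply mapped reads are not given in the sources used here. Counts were tested with edgeR 4.0.16 (quasi-likelihood, default expression filter with a minimum count of 10, TMM scaling, Benjamini-Hochberg adjustment over 15937 genes, threshold 0.05) in R 4.3.3, with DESeq2 1.42.0 and limma 3.58.1 as alternatives. CPM used TMM-scaled library sizes, and the floor was 3 counts per library. Coordinates, exon lengths and overlaps came from GENCODE M21 (GRCm38), which held 45143 of the 46078 identifiers. No 2 libraries of a group were copies (chi-square per degree of freedom at least 28.5). All 38 members are described. From 5 neighbouring lists up to 3 genes each were named, those with the largest change past the threshold, an average log2 CPM of 3 or more and no overlap between fractions. The members and the gene lists were chosen with earlier results of these data known.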

Additional observations from a re-analysis of the deposited data

Results flagged for a closer look

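Over 74 sets of member levels by fraction, 1 library stood apart from its group by Dixon's test, and chance is expected to flag about 1 in 20 sets. Ankrd37 had 0 counts in Sca-1- library 14, a log2 CPM of -3.63 with the prior count, where the other 4 Sca-1- libraries lay between 1.49 and 2.08. The gap took 0.896 of the whole range.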

How the results depend on the processing

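The counts of members called, 9 higher and 16 lower, stayed within 1.5 times under RLE, upper-quartile and library-size scaling, no filter, DESeq2, limma voom and a robust fit (9 to 13 higher, 14 to 17 lower). Over all genes the same settings called 3504 to 4397 higher and 2431 to 4253 lower. Leaving out 1 library at a time gave 7 to 10 higher and 16 to 17 lower, and 9 to 10 of the 12 ratios passing. Over all genes these fits called 3098 to 3708 higher and 2859 to 3577 lower. Library-size scaling moved the median of all genes to 0.43 and the share of calls that were higher from 52.1% to 63.1%. It gave 13 members higher and 14 lower, and over all 15937 genes tested 4158 higher and 2431 lower. Consecutive title numbers (7 and 8, 13 and 14, 15 and 16) as a replicate block left 6 libraries. These gave 4 members higher and 11 lower, where the same 6 libraries without the block gave 6 and 16. Over all 15924 genes tested the block gave 2265 higher and 2075 lower, and the same libraries without it 2768 and 2592. The pairs' deviations correlated at 0.147, 0.148 and 0.042, and while the titles of 15 and 16 share a further number, the labels do not say that any share animals, so they were not taken as pairs. The mark CD452 or wt in the titles as a term (8 libraries, without library 7, chosen after seeing the data) gave 8 higher and 13 lower. Over all 16367 genes tested this term gave 2804 higher and 2585 lower. Among uncalled genes the sign turned for Pdk1 (main -0.25) to 0.22 with library-size scaling, 0.036 with the block, 0.023 in the same 6 libraries and 0.040 without libraries 8 and 10, for Ndrg1 to 0.017 without libraries 8 and 10, for Pfkfb3 to -0.11 without libraries 19 and 16, and for Slc16a1 to 0.10 with library-size scaling, 0.04 with the block and 0.17 without libraries 19 and 16, with a range of -0.35 to 0.11 over single libraries left out. Hk3 was not called by limma voom (adjusted p = 0.074) or with the block (0.16), and DESeq2 gave it no adjusted p. With the block, the higher members Egln1 (edgeR adjusted p = 0.055), Gapdh (0.31), Ldhb (0.061), Ankrd37 (0.064) and P4ha2 (0.1) also lost their calls. So did the lower members Aldoa (edgeR adjusted p = 0.051), Pgk1 (0.091), Eno1 (0.1) and Pkm (0.06). Gapdh, Ldhb and P4ha2 were not called in the same 6 libraries without the block either. Eno1 over Eno2 passed in 1 of 9 leave-one-out tests (exact permutation, adjusted p 0.024 to 0.10). The 2 settings that leave out libraries 8 and 10 or libraries 19 and 16 were chosen after seeing the data. The second gave 7 higher and 16 lower, and over all 16082 genes tested 3283 higher and 3105 lower. With a pseudocount of 0, Aldoa over Aldoc and Eno1 over Eno2 are undefined, and 8 of the other ratios passed. The causes of these shifts were not tested. At these depths 3 counts equal 0.0996 to 0.209 CPM.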
